A study of Mus musculus with 12 samples.

Results

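Enriched conditioning, in which mice lived in an enriched environment (EE) before a sciatic nerve axotomy (SNA), was compared with the untreated state, standard housing followed by sham surgery (SH Sham), in RNA of whole sciatic dorsal root ganglia (DRG). The comparison was defined by the labels, as 3 samples of EE + SNA against 3 samples of SH Sham, which are 6 of the 12 samples of the series. All mice were C57BL/6, 5 to 8 weeks old, and spent 10 days in EE or SH. The EE cages were larger, held more mice and had nesting material, tunnels, wooden objects and a running wheel. The sciatic nerve was then cut through completely (SNA) or only exposed (Sham), and L4 to L6 DRG were taken 24 h later. Each sample pooled the ganglia of 2 mice, so that a P-value measures the spread between pools. The remaining 6 samples, 3 of SNA in standard housing (SH SNA) and 3 of enrichment with sham surgery (EE Sham), were used to set the combined change beside the changes after each treatment alone. The study took its EE Sham data from an earlier dataset, and whether those samples were sequenced together with the rest was not stated in the sources used here.

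Sensory neurons of the DRG send 1 axon that branches toward the limb and the spinal cord. When the branch in the nerve is cut, the cell body switches on a set of transcription factors, neuropeptides and cytoskeletal genes, and lowers many of the channels and receptors with which it senses and signals. A cut made before a central injury is known as a conditioning lesion because it raises the capacity of these neurons to regrow. The bulk ganglion also holds satellite glia, Schwann cells, macrophages, vessels and blood, and in bulk RNA fewer cells of a type and less RNA per cell cannot be told apart.

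Between 11401221 and 22871460 reads were counted on genes in the EE + SNA samples, and between 13782383 and 17036481 in SH Sham. The second EE + SNA sample was the deepest and the first the shallowest. Levels are given below in CPM, read counts scaled to library size with factors from the trimmed mean of M-values (TMM), always for samples 1, 2 and 3 in that order. CPM is not divided by gene length, so that it compares samples and not genes. Changes are log2 fold changes ± SE from edgeR's quasi-likelihood test, with P-values adjusted by Benjamini-Hochberg over all 16238 genes tested and called at an adjusted P of 0.05. The third EE + SNA sample stood apart by its levels of neutrophil and red blood cell genes, described in full further on, and each count was also taken without it.

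After EE + SNA, 2031 DE genes were called, 12.5% of those tested. Of these, 1116 were higher (6.87%) and 915 were lower (5.63%) than in SH Sham. Most changes were small, with a median absolute log2 fold change of 0.41 among DE genes. An absolute change of 1 or more was reached by 149 of them, 122 higher and 27 lower. Without the third EE + SNA sample, 1496 genes were called, 801 higher and 695 lower. Of the 2031 DE genes, 1409 (69.4%) were called in both, and all 2031 had the same direction. In 2018 of them the 2 groups did not overlap, so that leaving out 1 sample could hardly turn the direction. The count of DE genes moved by over 1.5 times without the first EE + SNA sample (1168), the first SH Sham sample (1219) and the third SH Sham sample (1275). The samples of the 2 groups did not overlap for 31.8% of all genes tested, which is the background for each gene below whose groups are said not to overlap. Nearly all DE genes were among them (2018 of 2031), so that for a DE gene this adds little to its call. The shares of 6.87% higher and 5.63% lower are the background for the rises and falls counted in each list below. The median log2 change over all genes tested was 0.0047.

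Genes of the injury response rose in the EE + SNA ganglia. All 6 genes used to check the labels were called, and in each of them the 3 EE + SNA samples lay above the 3 SH Sham samples. Atf3, a transcription factor induced in neurons by axotomy, was at 480, 454 and 516 CPM after EE + SNA and 110, 138 and 110 CPM in SH Sham, and rose by 2.02 ± 0.09 (adjusted P = 2.13e-07), or 4.05-fold. Sprr1a, a small proline-rich protein that promotes axon outgrowth, was at 30.5, 18.1 and 40.1 CPM against 7.68, 8.89 and 13.5 CPM and rose by 1.53 ± 0.26 (adjusted P = 0.00239). Its 3 EE + SNA samples were spread more widely than those of Atf3, with the second sample lowest.

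Sox11, a transcription factor of developing neurons, was at 13.7, 11.7 and 11.7 CPM after EE + SNA and 5.46, 5.67 and 3.94 CPM in SH Sham, a rise of 1.29 ± 0.15. The AP-1 component Jun had 223, 206 and 219 CPM against 129, 140 and 137 CPM and rose by 0.67 ± 0.061. The neuropeptide Gal rose by 0.88 ± 0.13, from 18.7, 19.1 and 26.1 CPM to 39.5, 34.1 and 45 CPM. Gap43, a growth cone protein that was already abundant in SH Sham at 223, 238 and 243 CPM, reached only 278, 272 and 284 CPM, a rise of 0.24 ± 0.058 (adjusted P = 0.0169). The call of Gap43 was lost in 3 of the 6 fits that left out 1 sample, while those of the other 5 genes were kept in all 6.

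**Figure D1:**
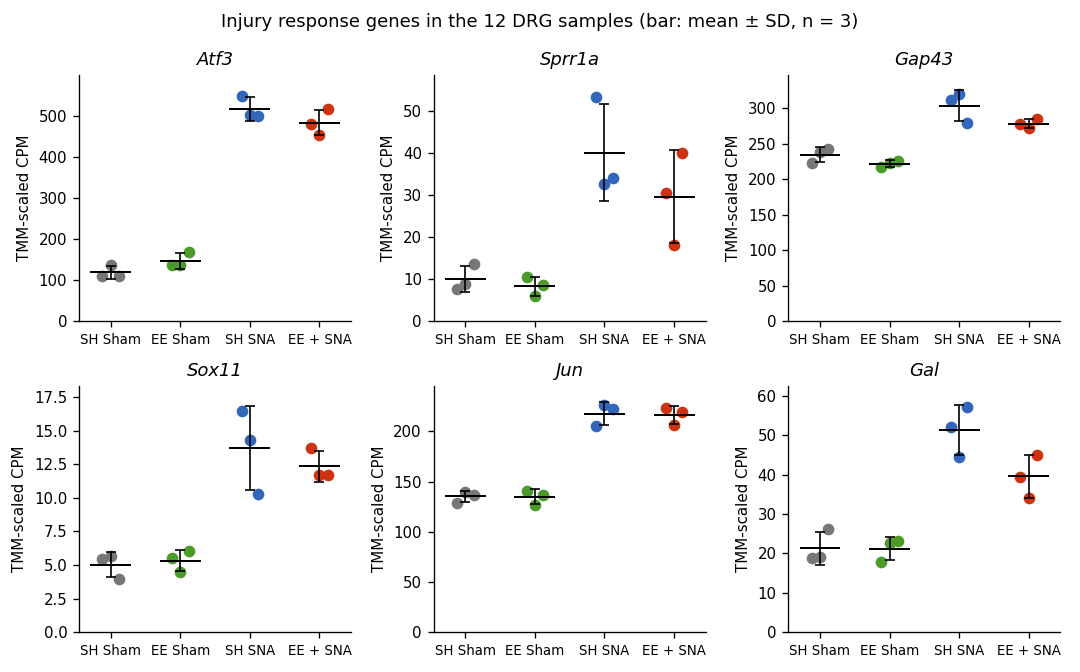
TMM-scaled CPM of 6 injury response genes (vertical axis, linear, from 0) in each of the 12 samples by group, with bars for mean ± SD (n = 3). The EE + SNA points lie above all SH Sham points in every panel, and the EE Sham points lie near those of SH Sham.

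After SH SNA the same genes had log2 changes against the same SH Sham samples of 2.12 for Atf3, 2.01 for Sprr1a, 1.45 for Sox11, 0.69 for Jun, 1.27 for Gal and 0.37 for Gap43. After EE Sham they lay between −0.27 for Sprr1a and 0.30 for Atf3. Between EE + SNA and SH SNA, compared directly, none of the 6 passed the adjusted threshold, with adjusted P-values of 0.989 or above. Gal had the smallest unadjusted P of the 6, 0.00543, at a log2 difference of −0.38 ± 0.11.

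Promoter sequences from RefSeq (GRCm38.p6, 250 bases before to 50 bases after the transcription start) were found for 5 of the 6 check genes, the exception being Gap43. They were searched on both strands for TGANTCA (the AP-1 motif, bound by Jun and Fos dimers), TGACGTCA (the CRE, bound by CREB and ATF proteins) and TTCNNNGAA (the STAT motif). Sprr1a held TGANTCA 2 times, starting 146 and 116 bases before the start, and the windows of Atf3, Sox11, Jun and Gal held none of the motifs. Over all 32851 RefSeq promoter windows of this length, 7.81% held TGANTCA, 1.79% TGACGTCA and 8.3% TTCNNNGAA. Of the 12 genes with the largest rise, 9 had a window in the table. Procr and Cd207 held TGANTCA and Areg held TGACGTCA, 61 bases before the start. The window of Sprr1a is shown because it holds the AP-1 letters 2 times, and those of Procr and Areg as an AP-1 and a CRE example among the largest rises, chosen after their values were seen. They run 5′ to 3′ along the transcribed strand, the motif is in capitals, and no 2 motifs overlap in them.
Sprr1a, chr3:92485832-92486131, minus strand: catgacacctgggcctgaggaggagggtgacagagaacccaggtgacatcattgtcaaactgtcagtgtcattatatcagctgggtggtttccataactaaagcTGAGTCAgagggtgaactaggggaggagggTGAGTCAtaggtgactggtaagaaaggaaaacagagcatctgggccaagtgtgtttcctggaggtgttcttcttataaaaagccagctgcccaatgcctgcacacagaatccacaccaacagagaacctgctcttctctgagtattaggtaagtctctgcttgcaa
Procr, chr2:155750967-155751266, plus strand: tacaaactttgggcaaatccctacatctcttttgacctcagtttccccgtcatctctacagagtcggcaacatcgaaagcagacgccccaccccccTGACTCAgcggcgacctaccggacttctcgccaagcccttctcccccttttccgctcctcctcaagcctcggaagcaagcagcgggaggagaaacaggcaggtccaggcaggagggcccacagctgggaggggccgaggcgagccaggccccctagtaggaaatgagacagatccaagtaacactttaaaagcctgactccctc
Areg, chr5:91139349-91139648, plus strand: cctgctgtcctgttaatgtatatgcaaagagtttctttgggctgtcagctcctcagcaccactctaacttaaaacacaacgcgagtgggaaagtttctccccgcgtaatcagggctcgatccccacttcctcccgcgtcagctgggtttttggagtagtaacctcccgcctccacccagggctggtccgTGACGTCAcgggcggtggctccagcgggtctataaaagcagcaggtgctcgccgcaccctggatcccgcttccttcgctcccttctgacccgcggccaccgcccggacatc
A match of letters describes the sequence and does not show binding.

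Among DE genes with a mean of at least 1 CPM over the 6 samples and groups that did not overlap, the 12 with the largest rise included a neuropeptide, growth factor and cytokine signaling genes and genes of muscle, epidermis and blood. Npy, a neuropeptide that is almost absent from uninjured DRG, was at 11.4, 7.7 and 8.95 CPM after EE + SNA against 1.17, 0.861 and 2.54 CPM and rose by 2.59 ± 0.28 (adjusted P = 0.000128). Areg, which encodes the EGF receptor ligand amphiregulin, was at 6.41, 5.18 and 12.7 CPM against 1.11, 1.43 and 1.67 CPM and rose by 2.49 ± 0.34 (adjusted P = 0.00051). The third EE + SNA sample was the highest, and without it the rise was 2.02 (adjusted P = 7.38e-05). Procr, the endothelial protein C receptor, rose by 2.01 ± 0.13, from 6.98, 7.68 and 7.96 CPM to 30.9, 25.8 and 35.3 CPM.

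Acvr1c, the activin and nodal receptor ALK7, was below 1 CPM in each SH Sham sample, at 0.352, 0.359 and 0.334 CPM, and at 1.96, 1.44 and 1.69 CPM after EE + SNA, a rise of 2.23 ± 0.33. The acute phase gene Saa1 had 3.65, 4.66 and 6.37 CPM against 0.645, 1.51 and 0.869 CPM, a rise of 2.30 ± 0.30. Cd207, which encodes langerin of Langerhans cells, rose by 2.19 ± 0.34, from 0.235, 0.43 and 0.602 CPM to 2.14, 1.83 and 1.85 CPM.

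Abra, an actin-binding signaling protein of striated muscle, had the largest rise of these 12, 4.12 ± 0.51 (adjusted P = 0.00029). It was at 1.69, 1.87 and 2.58 CPM after EE + SNA and at 0.117, 0.215 and 0 CPM in SH Sham, where 1 sample had no read. Igfn1, another gene of skeletal muscle, rose by 2.11 ± 0.38. Car1, a carbonic anhydrase of red blood cells, was at 1.25, 0.74 and 4.27 CPM against 0.469, 0.359 and 0.468 CPM, and its call was lost in 5 of the 6 fits that left out 1 sample, among them the fit without the third EE + SNA sample (log2 change 1.07, adjusted P = 0.149). Lce1g, from a family of near-identical cornified envelope genes, rose by 3.02 ± 0.37, and its reads may be shared with its copies.

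The 12 largest falls by the same rule included secreted, adhesion and channel genes of neurons. Cntn6, a contactin of axonal membranes, was at 1.42, 2.44 and 2.58 CPM after EE + SNA and 6.51, 6.46 and 6.82 CPM in SH Sham, a log2 change of −1.58 ± 0.19 (adjusted P = 0.00028). Vwc2l, a secreted protein with von Willebrand C domains, changed by −1.33 ± 0.13, from 18.3, 16.9 and 19.1 CPM to 7.3, 8.35 and 5.56 CPM. Nog, which encodes the BMP antagonist noggin, was at 2.85, 3.05 and 1.53 CPM against 6.16, 5.02 and 5.35 CPM and changed by −1.12 ± 0.22. Akap5, an anchor for protein kinase A, changed by −1.30 ± 0.32 and lost its call in 2 of the 6 fits that left out 1 sample, and Kcng1, a modulatory potassium channel subunit, by −1.22 ± 0.20.

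The Notch target Hes5 was at 0.712, 1.39 and 0.725 CPM after EE + SNA and at 3.11, 2.87 and 2.67 CPM in SH Sham, a log2 change of −1.50 ± 0.28. Its level was also low in EE Sham, at 1.44, 1.06 and 0.894 CPM, where the change was −1.36 ± 0.25 with an adjusted P of 0.394. Vstm2b, C1ql4, Tmem196, Gm15651, Gm1604A and Gm8104 completed the 12 largest falls, with log2 changes between −1.57 for Gm8104 and −1.13 for C1ql4 and Tmem196. Gm8104 belongs to a group of near-identical predicted genes, so its count is uncertain, and Gm1604A lost its call in 4 of the 6 fits that left out 1 sample.

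**Figure D2:**
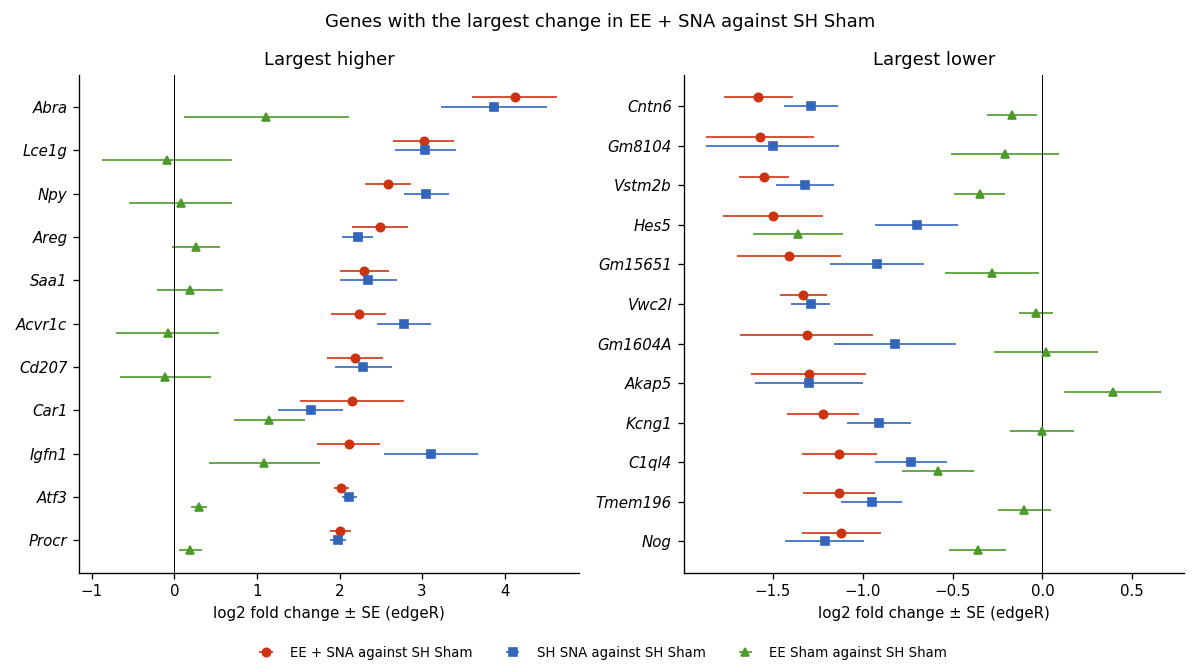
Log2 fold change ± SE from edgeR (horizontal axis) of 11 of the 12 genes with the largest rise and the 12 with the largest fall in EE + SNA (by the rule given above), each with its change after SH SNA and EE Sham against the same SH Sham samples. The red EE + SNA and blue SH SNA points lie on the same side of 0 for every gene shown, and Hes5 is the fall in which EE Sham lies close to EE + SNA.

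Among transcription factors linked to axon regeneration, 15 of 36 rose and 0 fell, with a median log2 change of 0.25. Without the third EE + SNA sample 13 rose. Apart from Atf3 and Sox11, the largest rise was that of Ankrd1, an ankyrin repeat cofactor, from 0.293, 0.0717 and 0.267 CPM to 1.33, 1.26 and 1.69 CPM (2.66 ± 0.42, adjusted P = 0.00171). Nfil3, a bZIP repressor, rose by 1.21 ± 0.13, from 7.98, 11.1 and 9.69 CPM to 24.3, 20 and 22.6 CPM. Csrnp1 rose by 1.07 ± 0.11, the Krüppel-like factor Klf6 by 0.96 ± 0.087, Myc by 0.70 ± 0.10 and Smad1, an effector of BMP signaling, by 0.59 ± 0.067. In each of these the groups did not overlap.

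By number, growth and cytoskeletal genes gave the most rises of the lists examined, 24 of 52, with 1 fall. The share called was 48.1%, beside 64.7% of the acute phase list and 12.5% of all genes tested. The counts were 24 and 1 without the third EE + SNA sample. Flrt3, an adhesion molecule of growing neurites, was at 164, 131 and 160 CPM against 41.6, 42.5 and 37.1 CPM and rose by 1.90 ± 0.091 (adjusted P = 2.13e-07). Gadd45a, a stress-induced gene, rose by 1.81 ± 0.11, from 74.1, 90.5 and 64.9 CPM to 277, 238 and 292 CPM. Sema6a, a transmembrane semaphorin, rose by 1.58 ± 0.10, and Stmn4, a stathmin that binds tubulin, by 1.37 ± 0.078.

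In the plasminogen system the urokinase receptor Plaur rose by 1.28 ± 0.087, tissue plasminogen activator Plat by 0.59 ± 0.093, and urokinase Plau by 0.58 ± 0.15. The only member that fell was Nrn1, the growth-promoting protein neuritin, from 588, 540 and 611 CPM to 454, 468 and 426 CPM (−0.37 ± 0.064, adjusted P = 0.0029). Against SH SNA directly, no member passed the adjusted threshold. At an unadjusted P of 0.05, 6 of 52 were lower in EE + SNA and 0 higher, beside 4.1% of all genes at that threshold in either direction. The smallest of these P-values belonged to Adam8, a membrane protease, at 0.00395 (log2 change −0.35 ± 0.097, adjusted P = 0.989).

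Of 17 neuropeptide genes tested, 6 rose, 0 fell and the others did not pass. Those that rose were Npy and Gal, given above, and Adcyap1, Nts, Pthlh and Ucn. Adcyap1, which encodes PACAP, was the most abundant of the 6 in read counts, at 394, 358 and 441 CPM against 176, 168 and 168 CPM, and rose by 1.22 ± 0.075 (adjusted P = 1.72e-06). Pthlh, parathyroid hormone-like peptide, rose by 1.29 ± 0.18, from 2.41, 3.95 and 2.94 CPM to 7.21, 7.4 and 7.98 CPM, and Nts, neurotensin, by 0.93 ± 0.14. Ucn, urocortin, was below 1 CPM in every sample of the 2 groups, at 0.801, 0.783 and 0.564 CPM against 0.0587, 0.287 and 0.201 CPM.

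The nociceptor peptide genes Calca and Tac1 did not pass the test. Calca, the precursor of CGRP, had log2 change 0.089 ± 0.059 (adjusted P = 0.372) and Tac1, the precursor of substance P, 0.017 ± 0.065 (adjusted P = 0.906). Vip, known to appear in DRG after axotomy, was not tested because it had only 3, 3 and 23 reads after EE + SNA and 0, 3 and 1 in SH Sham. Most of its reads came from the third EE + SNA sample.

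Receptors for opioids, cannabinoids, amines and peptides fell more often than they rose, 9 of 28 against 2. The nociceptin receptor Oprl1 was at 9.79, 10.4 and 11 CPM after EE + SNA and 20.5, 20.6 and 22.9 CPM in SH Sham, a change of −1.04 ± 0.096 (adjusted P = 3.77e-05). The muscarinic receptor Chrm2 changed by −1.01 ± 0.12, from 24, 18.9 and 19.6 CPM to 10.8, 10.9 and 9.43 CPM, and the delta opioid receptor Oprd1 by −0.82 ± 0.18. The cannabinoid receptor Cnr1 changed by −0.53 ± 0.086, the adrenergic receptor Adra2c by −0.83 ± 0.15 and the serotonin receptors Htr1d and Htr3b by −0.62 ± 0.082 and −0.58 ± 0.12.

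The 2 receptors that rose were Cckbr, for cholecystokinin and gastrin, from 1.76, 2.73 and 2.47 CPM to 8.45, 6.48 and 6.61 CPM (1.63 ± 0.20, adjusted P = 0.000246), and the neuropeptide Y receptor Npy1r, from 46.6, 48.8 and 46.6 CPM to 83.1, 74.9 and 79.5 CPM (0.74 ± 0.065). After SH SNA, Oprl1 changed by −1.03, Chrm2 by −0.83, Cckbr by 2.06 and Npy1r by 0.73 against the same controls.

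Of 74 potassium and HCN channel genes, 23 fell and 0 rose, with a median of −0.23, and 17 fell without the third EE + SNA sample. Kcnj3, the inward rectifier GIRK1, was at 15.5, 16.8 and 15.1 CPM against 27.9, 24.2 and 21.7 CPM and changed by −0.64 ± 0.11 (adjusted P = 0.00217). Kcnh7 changed by −0.60 ± 0.098, Kcnk18, the leak channel TRESK, by −0.71 ± 0.20, and Hcn2, a pacemaker channel, by −0.32 ± 0.063.

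Of 14 sodium channel genes, 4 fell and 0 rose. Scn1a, a channel of large sensory neurons, was at 93.6, 99.5 and 87.4 CPM against 154, 143 and 141 CPM, a change of −0.64 ± 0.067 (adjusted P = 9.68e-05). Scn8a changed by −0.41 ± 0.062, the beta subunit Scn4b by −0.31 ± 0.053 and Scn4a by −0.50 ± 0.13. Of 16 calcium channel genes 1 rose and 1 fell, 12.5% of them, the same share as over all genes tested. Cacna2d1, the gabapentin target alpha-2-delta-1, rose by 0.38 ± 0.071 and Cacna2d2 changed by −0.42 ± 0.10, a call that was lost without the first EE + SNA or the third SH Sham sample.

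Of 28 GABA and glutamate receptor subunits, 6 fell and 0 rose. The AMPA receptor subunit Gria2 was at 12.5, 14 and 12.7 CPM against 23.1, 20.9 and 23.5 CPM and changed by −0.78 ± 0.093 (adjusted P = 0.000235), and the metabotropic receptor Grm4 changed by −0.69 ± 0.11. Among 39 vesicle release genes 8 fell and 2 rose. The synaptotagmins split, with Syt2 and Syt7 at −0.42 ± 0.063 and −0.52 ± 0.099 and Syt4 at 0.57 ± 0.074. Syt4 went from 540, 468 and 476 CPM to 786, 677 and 744 CPM.

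Of 33 sensory transducers 7 fell and 3 rose. The acid sensor Asic1 changed by −0.60 ± 0.096, from 67.8, 74.1 and 86.3 CPM to 46.6, 47.5 and 57.1 CPM, the cold sensor Trpm8 by −0.46 ± 0.092 and the nonpeptidergic nociceptor receptor Mrgprd by −0.40 ± 0.11. The 3 that rose were the ATP receptor P2rx5 (0.55 ± 0.089), the mechanosensitive channel Piezo1 (0.45 ± 0.12) and Trpv2 (0.34 ± 0.063). Piezo1 lost its call without the third EE + SNA sample (adjusted P = 0.071).

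Transcription factors that mark sensory neuron identity fell or did not pass the test, 10 of 30 lower and 0 higher. Hoxd1, which acts in nociceptor circuits, was at 8.99, 8.09 and 7.82 CPM against 16.7, 16.3 and 15.6 CPM and changed by −0.97 ± 0.10 (adjusted P = 0.000113). The POU factors Pou4f2, Pou4f3 and Pou4f1 changed by −0.98 ± 0.17, −0.67 ± 0.11 and −0.23 ± 0.065, the LIM factor Isl1 by −0.43 ± 0.07, and Etv1, a factor of proprioceptors and mechanoreceptors, by −0.55 ± 0.075. Isl1, at 84.5, 81 and 75.7 CPM against 117, 102 and 105 CPM, did not overlap between the groups.

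The neuronal marker genes moved in the main direction of these lists. They include Isl1 and Mrgprd, given above with the identity factors and the transducers, so that the lists are not independent. Of 20 markers 6 fell and 0 rose, and their summed level was 22448, 22209 and 22923 CPM after EE + SNA and 25003, 25725 and 26589 CPM in SH Sham. The neurofilament genes Nefl, Nefm and Nefh, with log2 changes of −0.24, −0.29 and −0.31, were among those that fell. The part of this difference in the falls of channels, receptors and identity factors was not tested.

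**Figure D3:**
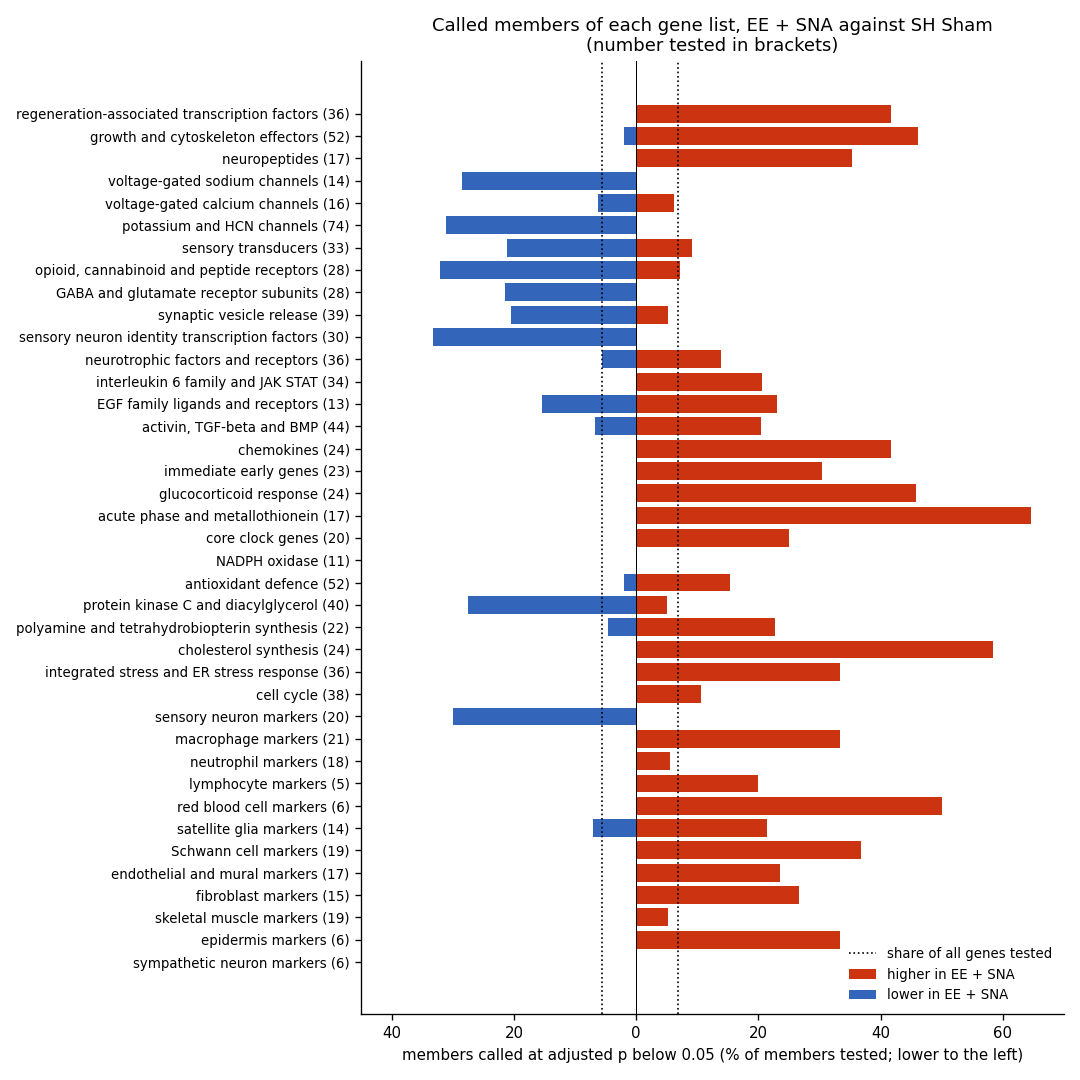
Share of the tested members of each gene list, the check genes excepted, that was called at an adjusted P below 0.05 in EE + SNA against SH Sham (horizontal axis in %, higher to the right and lower to the left), with dotted lines at the shares of all genes tested, 6.87% and 5.63%. Of the lists shown, bars to the right are longest for the acute phase and cholesterol synthesis lists, and bars to the left for neuronal identity factors, receptors and potassium channels.

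The counts of several lists moved by over 1.5 times when 1 sample was left out, and the samples are given here by list. Potassium and HCN channels had 14 falls without the first EE + SNA and 12 without the third SH Sham sample, sodium channels 7 without the second EE + SNA sample, and sensory transducers 4 without the first EE + SNA, the first SH Sham or the third SH Sham sample. The vesicle release list had 4 falls without the first EE + SNA or the third SH Sham sample and 5 without the second SH Sham sample, and the sensory neuron markers had 3 without the first EE + SNA or the second SH Sham sample and 2 without the third SH Sham sample. The PKC and diacylglycerol list had 5 falls without the first EE + SNA or the third SH Sham sample and 6 without the first SH Sham sample. The 2 falls of the neurotrophic list became 0 without the third SH Sham sample and 1 without any other except the second EE + SNA sample, and the 1 fall of the antioxidant list became 0 without the third EE + SNA or the first or the second SH Sham sample.

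Among the lists that rose, the ER stress list had 5 rises without the first EE + SNA or the third SH Sham sample and 6 without the first SH Sham sample, and the acute phase list 6 and 5 without the first EE + SNA and the first SH Sham sample. Chemokines had 5 and 4 rises without the first and the third SH Sham sample, and immediate early genes 3 without the first EE + SNA or the first SH Sham sample and 4 without the third sample of either group. Clock genes had 3 without the first sample of either group, and the polyamine list 3 without the first or the third EE + SNA or the first or second SH Sham sample. The 2 rises of the vesicle release list became 1 without the first or the second sample of either group, and the 2 of the PKC list 1 without any sample but the third EE + SNA. The growth, transcription factor, neuropeptide, receptor, identity factor, glucocorticoid and antioxidant lists did not move by as much in their leading direction in any of the 6 fits.

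Signals between cells changed in a few named genes of each family. Among neurotrophic factors and receptors 5 of 36 rose and 2 fell, 19.4% in all beside 12.5% of all genes tested. Csf1, the macrophage growth factor that injured sensory neurons make, was at 67.9, 57.9 and 71.8 CPM against 28.5, 33.1 and 31.6 CPM and rose by 1.08 ± 0.089 (adjusted P = 1.58e-05). The GDNF receptor Gfra1 rose by 0.83 ± 0.068, from 195, 187 and 209 CPM to 370, 324 and 359 CPM, whereas the neurturin receptor Gfra2 changed by −0.41 ± 0.10. Bdnf rose by 0.42 ± 0.07.

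Of the interleukin 6 family with JAK and STAT genes, 7 of 34 rose and 0 fell. Il6 itself was low, at 3.92, 3.66 and 3.38 CPM against 1.64, 1.29 and 1.4 CPM, and rose by 1.32 ± 0.21 (adjusted P = 0.00145). The feedback inhibitors Cish, Socs3 and Socs2 rose by 0.58 ± 0.12, 0.46 ± 0.088 and 0.39 ± 0.058.

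In the EGF family, 3 of 13 genes rose and 2 fell. The ligands Areg and Tgfa rose, Tgfa by 0.41 ± 0.078, and the neuregulins Nrg1 and Nrg2 fell, Nrg1 from 55.1, 54.7 and 55.2 CPM to 39.6, 42 and 37.2 CPM (−0.47 ± 0.066, adjusted P = 0.000654) and Nrg2 with −0.85 ± 0.18. The receptor Erbb2 rose by 0.33 ± 0.10 (adjusted P = 0.0495), close to the threshold.

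In the activin, TGF-beta and BMP family 9 of 44 rose and 3 fell. Next to Acvr1c the activin-binding protein follistatin, Fst, rose by 0.93 ± 0.10, from 13.1, 14 and 13.8 CPM to 28.7, 23 and 26.7 CPM. The receptor SMADs of the BMP pathway parted, with Smad1 higher by 0.59 ± 0.067 and Smad9 changed by −0.87 ± 0.063, from 62.6, 58 and 61.8 CPM to 32.7, 34.1 and 32.8 CPM (adjusted P = 6.71e-06). The type I receptor Acvr1 rose by 0.61 ± 0.083.

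Of 24 chemokine genes and receptors tested, 10 rose and 0 fell. Ccl6 and Ccl9 rose by 1.14 ± 0.19 and 1.10 ± 0.20, and the receptors Ccr1 and Ccr2 by 1.17 ± 0.31 and 0.88 ± 0.22. Without the third EE + SNA sample 7 were called. Macrophage markers moved in the same direction, 7 of 21 higher and 3 without that sample, with a summed level of 341, 333 and 484 CPM after EE + SNA and 295, 306 and 288 CPM in SH Sham. Itgam, an integrin of myeloid cells, was at 8.37, 6.96 and 15.7 CPM against 4.63, 6.81 and 4.95 CPM and rose by 0.90 ± 0.27, and the fractalkine receptor Cx3cr1 rose by 0.80 ± 0.18. The part of these markers in the chemokine counts was not tested.

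Of 24 genes of the glucocorticoid response 11 rose and 0 fell. Plin4, a lipid droplet coat protein, was at 38.8, 40.3 and 36.7 CPM after EE + SNA and 4.28, 14.7 and 13.1 CPM in SH Sham and rose by 1.88 ± 0.26 (adjusted P = 0.000702). In SH SNA it was at 32.6, 22.6 and 30.5 CPM and in EE Sham at 11.9, 38.5 and 19.3 CPM. The levels of Plin4 differed 3-fold or more within SH Sham and within EE Sham, while the 3 EE + SNA samples lay close together.

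The metallothioneins Mt1 and Mt2, which bind zinc, rose by 0.87 ± 0.092 and 1.08 ± 0.13. Mt2 was at 244, 204 and 274 CPM against 91.9, 133 and 117 CPM. Of the acute phase list, which shares Mt1 and Mt2 with the glucocorticoid list, 11 of 17 rose, including the haptoglobin gene Hp (1.24 ± 0.34), Lbp (0.64 ± 0.15) and Timp1 (0.48 ± 0.11). Hp was highest in the third EE + SNA sample, at 12.1, 6.96 and 18.1 CPM against 3.17, 7.82 and 4.48 CPM, and its call was lost without it (adjusted P = 0.0937).

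Zbtb16, a zinc finger repressor induced by glucocorticoids, was at 9.17, 11 and 8.22 CPM after EE + SNA and 2.99, 5.09 and 5.82 CPM in SH Sham and rose by 1.06 ± 0.21 (adjusted P = 0.00603). After either treatment alone it was at 11.9, 8.53 and 15.4 CPM in SH SNA and 12.3, 13.8 and 11.1 CPM in EE Sham. The 3 EE + SNA samples overlapped with those of SH SNA and lay below those of EE Sham.

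Of 20 core clock genes 5 rose and 0 fell, Nfil3 and Bhlhe41 by the most, with 1.21 ± 0.13 and 0.53 ± 0.062. Among 23 immediate early genes 7 rose and 0 fell, and 4 were called without the third EE + SNA sample. Btg2 rose by 0.86 ± 0.11, Dusp1 by 0.71 ± 0.092 and Nr4a2 by 0.44 ± 0.11.

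Of 36 genes of the integrated stress and ER stress response, 12 rose and 0 fell. Chac1, a glutathione-degrading target of ATF4, was at 15.7, 19.4 and 18 CPM against 7.51, 10.3 and 8.96 CPM and rose 2.01-fold (adjusted P = 0.000364). Ppp1r15a, which restarts translation after stress, rose by 0.87 ± 0.071, Trib3 by 0.84 ± 0.14 and Atf4 by 0.42 ± 0.081. In the polyamine and tetrahydrobiopterin list 5 of 22 rose and 1 fell. The ornithine decarboxylase gene Odc1 rose by 0.77 ± 0.084 and its regulator Azin1 by 0.67 ± 0.066, from 330, 306 and 295 CPM to 505, 464 and 517 CPM.

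Redox and lipid signaling genes were examined because the study turns to reactive oxygen species. Of 52 antioxidant genes 8 rose and 1 fell, 17.3% in all beside 12.5% of all genes tested. Sulfiredoxin, Srxn1, which restores oxidized peroxiredoxins, was at 952, 934 and 1024 CPM against 532, 561 and 560 CPM and rose by 0.81 ± 0.059 (adjusted P = 6.71e-06). Txnip rose by 0.56 ± 0.10, Hmox1 by 0.41 ± 0.09 and the thioredoxin reductase Txnrd1 by 0.30 ± 0.061, while Gclc, of glutathione synthesis, changed by −0.26 ± 0.071.

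None of the 11 genes tested of the NADPH oxidase complexes was called. At an unadjusted P of 0.05, 5 were higher and 1 lower, beside 2381 higher and 2040 lower of all 16238 genes tested. Of the 11 genes, DESeq2 called 1, edgeR's likelihood ratio test 2, and the quasi-likelihood test 4 higher when the second EE + SNA sample was left out. Without the third EE + SNA sample 1, Nox1, was called lower (log2 change −0.60, adjusted P = 0.0348). Cybb, the catalytic subunit of NOX2, was at 4.81, 6.35 and 17.2 CPM after EE + SNA and 5.04, 7.32 and 4.48 CPM in SH Sham, a change of 0.73 ± 0.37 (adjusted P = 0.227). Ncf1 had 5.34, 4 and 15.6 CPM against 4.11, 5.16 and 4.21 CPM, and Rac2 4.81, 3.96 and 13.3 CPM against 3.52, 3.37 and 3.34 CPM. In all 3 genes the third EE + SNA sample was highest by far and the other EE + SNA samples lay near or within the SH Sham range. Without it, the changes were 0.029 for Cybb, 0.017 for Ncf1 and 0.33 for Rac2. The part of the neutrophil signal of this sample in these levels was not tested.

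Genes of protein kinase C and diacylglycerol signaling fell more often than they rose, 11 of 40 against 2. The diacylglycerol kinase Dgkg was at 13.1, 14.1 and 9.91 CPM against 19.8, 20.4 and 22 CPM and changed by −0.73 ± 0.12 (adjusted P = 0.00208), Rasgrp1 changed by −0.54 ± 0.11, and the kinases Prkca, Prkce, Prkcq and Prkcz by −0.24 ± 0.074, −0.27 ± 0.071, −0.36 ± 0.094 and −0.37 ± 0.063. Plcd1 and Dgkd rose, by 0.54 ± 0.12 and 0.22 ± 0.065. Without the third EE + SNA sample 8 of these genes were called lower and 2 higher.

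Cholesterol synthesis and uptake genes rose by small amounts in many members. These enzymes turn acetyl-CoA into cholesterol, which growing membranes and myelin need, and their genes are switched on together by SREBP2 when sterols run short. Of 24 tested, 14 rose and 0 fell, with a median log2 change of 0.24. In 17 of the 24 all EE + SNA samples lay above all SH Sham samples, beside 2618 of all 16238 genes tested. Without the third EE + SNA sample 10 were called, with a median of 0.25. The fewest were called without the second SH Sham sample, 8, and without the third, 9.

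Along the pathway, Pmvk rose by 0.36 ± 0.085, Mvd by 0.46 ± 0.066, Idi1 by 0.42 ± 0.076 (adjusted P = 0.00392) and Fdps by 0.22 ± 0.063 in the mevalonate branch. Idi1 was at 414, 394 and 421 CPM against 344, 295 and 279 CPM. Of the sterol branch, Sqle rose by 0.21 ± 0.059, Cyp51 by 0.32 ± 0.067, Hsd17b7 by 0.48 ± 0.073, Ebp by 0.29 ± 0.068 and Sc5d by 0.27 ± 0.067.

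Insig1, which holds SREBP2 back and is itself a target of it, rose by 0.39 ± 0.067, from 144, 139 and 124 CPM to 174, 184 and 177 CPM. The sterol carrier Stard4 rose by 0.42 ± 0.074, from 142, 123 and 131 CPM to 181, 187 and 161 CPM. The enzyme genes Hmgcs1 and Dhcr7 and the regulator Srebf2 did not pass, with log2 changes of 0.073, −0.05 and −0.083.

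Set directly against SH SNA, without use of the SH Sham samples, most of this list was higher in EE + SNA. None of its members passed the adjusted threshold, where the smallest adjusted P over all genes was 0.989. At an unadjusted P of 0.05, 10 of 24 were higher in EE + SNA than in SH SNA and 0 lower, beside 4.1% of all genes in either direction. The log2 difference was above 0 for 23 of 24, with a median of 0.14 beside 0.0024 over all genes. Such a difference was not limited to the cholesterol list. Of the vascular markers 4 of 17 were higher and 0 lower at that threshold, with a median of 0.18. Fibroblast markers had 1 of 15 higher and 0 lower, with a median of 0.15.

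The differences of smallest P in the cholesterol list were those of Lss (0.33 ± 0.095, unadjusted P = 0.00495), Idi1 (0.28 ± 0.08, unadjusted P = 0.00504) and Cyp51 (0.25 ± 0.073, unadjusted P = 0.00531), by edgeR's quasi-likelihood test. Leaving out each sample in turn, between 6 and 16 members had an unadjusted P below 0.05, the fewest without the third and the most without the second SH SNA sample. The other analyses of all 6 samples gave 9 to 12.

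Summed over the list, the level was 4784, 5051 and 4871 CPM after EE + SNA, 4152, 4816 and 4302 CPM after SH SNA, 4604, 4506 and 4847 CPM after EE Sham and 4499, 4242 and 4272 CPM in SH Sham. The second SH SNA sample and the third EE Sham sample lay within the range of EE + SNA. Against SH Sham 1 member was called after SH SNA and 0 after EE Sham, beside 1823 and 1 of all 16238 genes tested. At an unadjusted P of 0.05, 6 members were higher and 0 lower after EE Sham, beside 483 of all genes in either direction. After SH SNA 3 members were higher and 1 lower at that threshold, beside 4086 of all genes. The log2 change was above 0 for 23 of 24 after EE Sham (median 0.11) and for 16 after SH SNA (median 0.096). Set directly against EE Sham, EE + SNA had 1 call, beside 4.83% of all genes, with 18 of 24 above 0 and a median of 0.066. The interaction of housing and surgery had 0 at an unadjusted P of 0.05, beside 2.61% of all genes. Schwann cell markers were also higher after EE + SNA than in SH Sham, 7 of 19. Against SH SNA directly, 0 of the 19 had an unadjusted P below 0.05, beside 4.1% of all genes, a share at which few of 19 would be counted. Their sums were 10729, 11050 and 13630 CPM after EE + SNA and 10972, 9026 and 13101 CPM after SH SNA. The part of Schwann cell RNA in the levels of the cholesterol list was not tested.

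**Figure D4:**
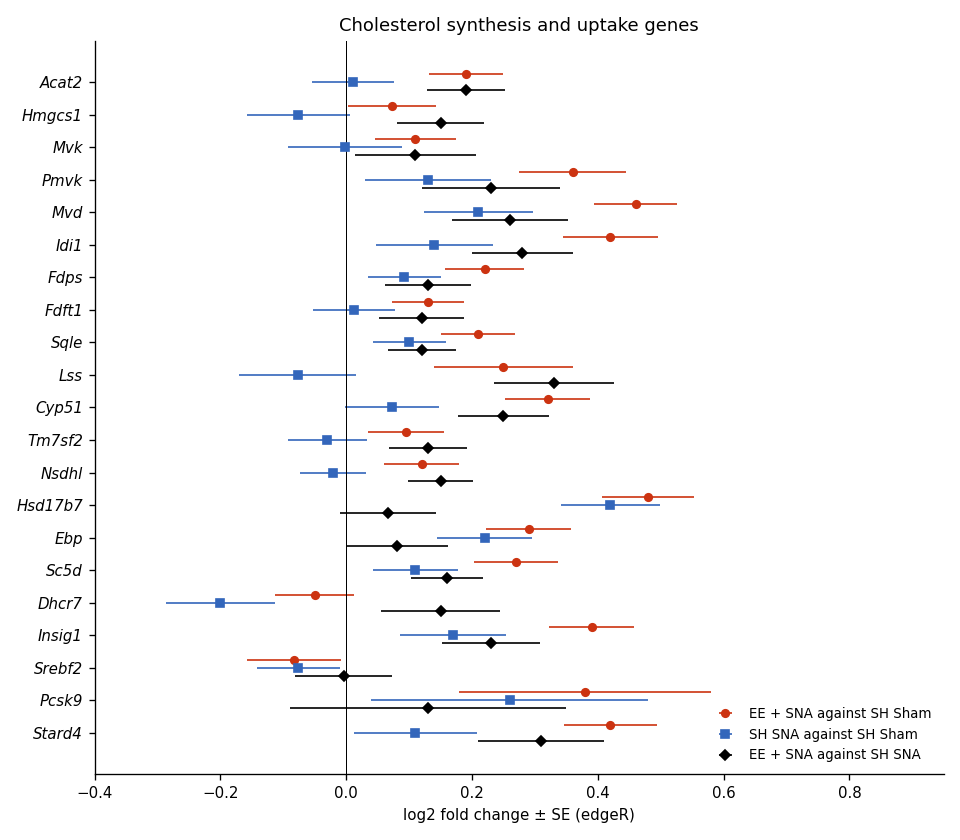
Log2 fold change ± SE from edgeR (horizontal axis) of 21 of the 24 cholesterol synthesis and uptake genes tested, for EE + SNA and SH SNA against SH Sham and for EE + SNA against SH SNA. The black points of the direct comparison lie to the right of 0 for 20 of the 21 genes shown, and none of them passed the adjusted threshold.

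Among the markers of other cells, neutrophil genes were highest in the third EE + SNA sample. The summed level of the list was 224, 195 and 892 CPM after EE + SNA, 143, 250 and 95.8 CPM in SH Sham, 259, 153 and 398 CPM in SH SNA and 223, 291 and 125 CPM in EE Sham. S100a9, a subunit of calprotectin, was at 72.2, 66 and 323 CPM after EE + SNA and 45.5, 85 and 31.3 CPM in SH Sham, and its partner S100a8 at 48, 47.8 and 217 CPM and 34, 51.1 and 21 CPM.

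Granule genes followed, with Ngp at 28.5, 20.8 and 110 CPM, Camp at 7.39, 5.13 and 28.6 CPM and Mmp8 at 7.12, 4.7 and 20 CPM in the EE + SNA samples. Lcn2, a lipocalin of neutrophils that injured tissue also makes, was at 19.8, 14.5 and 51.7 CPM against 9.56, 20.5 and 7.22 CPM. Without the third sample the log2 changes were 0.35 for S100a9, 0.44 for S100a8, 0.28 for Ngp and 0.16 for Camp. Of 18 neutrophil markers 1, Retnlg, was called, and 0 without the third EE + SNA sample. The median log2 change of the list went from 1.34 to 0.39. Without the second EE + SNA sample 14 were called, without the first 2, and without the second SH Sham sample 4.

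Red blood cell genes were also highest in that sample, with a sum of 284, 183 and 630 CPM after EE + SNA and 122, 182 and 189 CPM in SH Sham. The third SH SNA sample, at 248, 193 and 535 CPM for the 3 of that group, came next. Of 6 tested 3 rose and 0 without the third EE + SNA sample. Hba-a1, an alpha globin gene with a near-identical copy in Hba-a2, was at 145, 89.4 and 325 CPM against 53.9, 85.1 and 96.1 CPM. Without the second EE + SNA sample 6 were called, and without any other sample 0.

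Lymphocyte markers had 1 call of 5 tested, Ighm, at 49.7, 45.6 and 54.6 CPM against 43.8, 39.7 and 37.6 CPM (0.30 ± 0.082), and 13 of the 18 on the list were too low to test. Of 38 cell cycle genes 4 rose and 0 fell, 10.5% beside 12.5% of all genes tested. Without the third EE + SNA sample 2 rose and 1 fell. Hmgb2, one of the 4, was at 14.3, 12.3 and 29.9 CPM against 7.92, 10.5 and 7.69 CPM, highest in the same sample. The cell cycle count was 9 without the second EE + SNA sample, 1 without the first SH Sham sample and 2 without the second or the third. Macrophage markers had 1 call without the first or the third SH Sham sample.

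Among glial and connective tissue markers, 3 of 14 satellite glia genes rose and 1 fell, 7 of 19 Schwann cell genes rose, and 4 of 17 vascular and 4 of 15 fibroblast genes rose. Without 1 sample the counts went as low as 1 for satellite glia (the first EE + SNA), 2 for Schwann cells (the first SH Sham, and 3 without the third), 1 for vessels (the third SH Sham, and 2 without the first or the third EE + SNA or the first SH Sham sample) and 2 for fibroblasts (the first or the third EE + SNA or the first SH Sham). Drp2, which links the Schwann cell to its basal lamina, was at 608, 613 and 669 CPM against 367, 472 and 350 CPM and rose by 0.67 ± 0.097 (adjusted P = 0.000905). The myelin genes Mbp and Prx rose by 0.46 ± 0.11 and 0.44 ± 0.082. The glutamine synthetase gene Glul rose by 0.44 ± 0.077, and Apod, a lipocalin of nerve fibroblasts, by 0.66 ± 0.11. Hapln1, a matrix link protein, changed by −0.69 ± 0.11. The fibroblast genes Dcn and Pdgfra rose by 0.46 ± 0.085 and 0.43 ± 0.12, and Cdh5, the cadherin of endothelial junctions, by 0.36 ± 0.10. Acta2, smooth muscle actin, rose by 0.77 ± 0.14, from 16.9, 24 and 15.2 CPM to 35.2, 29.7 and 31.2 CPM.

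The summed level of skeletal muscle genes was 311, 300 and 440 CPM after EE + SNA, 126, 145 and 346 CPM in SH Sham, 184, 1730 and 193 CPM in SH SNA and 136, 426 and 219 CPM in EE Sham, with the second SH SNA sample far above the rest. The list includes Pvalb, which is not limited to muscle and had the highest mean CPM of the uncalled members, and no sum was taken without it. Of 19 tested 1, Casq1, was called after EE + SNA. Without the third SH Sham sample, 18 were called higher, and without the second EE + SNA sample 3. Acta1, skeletal actin, was at 29.6, 23.5 and 32.4 CPM against 1.17, 2.87 and 30.8 CPM, where the third SH Sham sample lay within the EE + SNA range. Abra and Igfn1 were high in the EE + SNA samples and the part of muscle RNA in this was not tested.

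Epidermis markers had 2 calls of 6 tested, Cd207 and Perp. Sympathetic neuron markers had 0 of 6, with 1 at an unadjusted P of 0.05, beside 4421 of all 16238 genes tested. Of the epidermis list 1 was called without the first sample of either group, and the call of Ighm was lost without the first or the third EE + SNA or the third SH Sham sample. Th, tyrosine hydroxylase, was at 46.6, 47.3 and 38 CPM after EE + SNA and 44.5, 39.6 and 55.4 CPM in SH Sham.

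**Figure D5:**
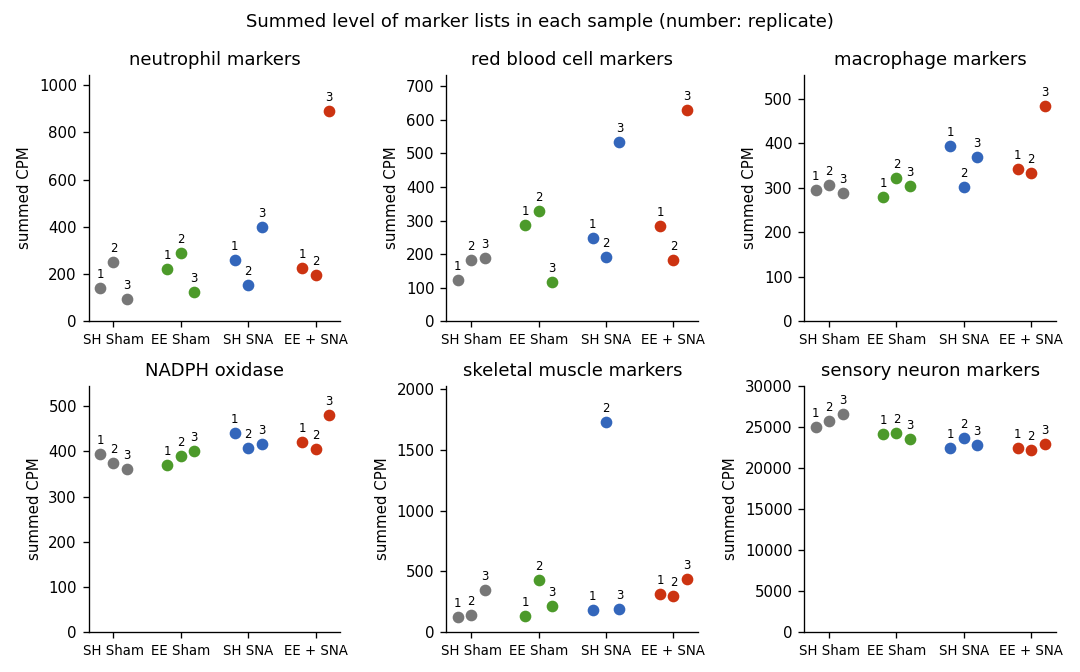
Summed CPM (vertical axis, linear, from 0) of 6 gene lists in each of the 12 samples, with the number of the sample in its group beside each point. The third EE + SNA sample is the highest for neutrophil, red blood cell, macrophage and NADPH oxidase genes, and the second SH SNA sample for skeletal muscle genes.

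Over all genes, EE + SNA was set against SH SNA to ask what enrichment adds to the injury. By edgeR's quasi-likelihood test 0 genes passed the adjusted threshold, 666 had an unadjusted P below 0.05, and DESeq2 called 2, Acta2 and Tagln. Both encode contractile proteins of smooth muscle. Tagln was at 66, 62.8 and 67.6 CPM after EE + SNA and 55.1, 40.5 and 41.5 CPM after SH SNA (0.52 ± 0.10, unadjusted P = 0.000395 by edgeR), and Acta2 at 35.2, 29.7 and 31.2 CPM and 25.3, 18.2 and 15.5 CPM (0.70 ± 0.15, unadjusted P = 0.000639 by edgeR). For both genes the 3 EE + SNA samples lay above the 3 SH SNA samples, while the EE Sham samples spanned 26.5 to 65.6 CPM for Tagln and 11.7 to 36.7 CPM for Acta2.

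Kcnmb1, the beta subunit of the BK channel of smooth muscle, had the smallest edgeR P among genes higher in EE + SNA, 0.000232, with 46.9, 45.3 and 43.6 CPM against 34, 36.9 and 32.5 CPM. Its EE + SNA level lay within the range of SH Sham, 45.9 to 50.3 CPM, or close below it. Among genes lower in EE + SNA, Acer2, a ceramidase of the Golgi, had the smallest P, 0.000322, with 7.92, 6.88 and 9.43 CPM against 14.4, 11.5 and 13.5 CPM and 8.86, 13.4 and 10.7 CPM in SH Sham. Fam124a, Serac1, Myo10 and Chst2 followed, each with an adjusted P of 0.989. Myo10, an unconventional myosin of filopodia, was at 51.1, 49.6 and 58 CPM after EE + SNA, 68, 65.7 and 62.6 CPM after SH SNA and 40.1, 43.9 and 38.3 CPM in SH Sham, so that it lay between the other groups.

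Without the second SH SNA sample, the one high in muscle RNA, 7 genes passed the adjusted threshold and all were higher in EE + SNA. They were Acta1, Ckm, Myl1, Atp2a1, Tnnc2, Tnnt3 and A930016O22Rik, and these calls were noted after their values were seen. The first 6 are genes of skeletal muscle.

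Against EE Sham, 785 genes were called (4.83% of those tested), 407 higher and 378 lower. The count moved by over 1.5 times without the first or the third EE + SNA or the first or the third EE Sham sample, to between 361 and 497. The smallest adjusted P was 4.24e-06, for Atf3 (1.71 ± 0.089), which was at 136, 136 and 168 CPM in EE Sham. Stmn4, Gadd45a, Flrt3 and E230016M11Rik came next among the higher genes and Oprl1, Fam13a, Smad9, 1110032F04Rik and Vwc2l led the lower genes. Oprl1 differed by −1.04 ± 0.10 (adjusted P = 0.000213) and was at 20.2, 22.8 and 20.9 CPM in EE Sham, close to its SH Sham level.

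The interaction tests whether the combined change departs from the sum, on the log scale, of the changes after each treatment. It gave 0 genes by edgeR at the adjusted threshold and 423 (2.61%) at an unadjusted P of 0.05 (771 without the second EE Sham sample), with a smallest adjusted P of 0.458 for Zbtb16. The likelihood ratio test of edgeR and DESeq2 each called 1 gene, and in both it was Zbtb16. Its interaction was −1.75 ± 0.31 (unadjusted P = 2.82e-05 by edgeR), and against SH Sham it rose by 1.38 ± 0.24 after SH SNA (adjusted P = 0.00264) and by 1.43 ± 0.19 after EE Sham (adjusted P = 0.0452), where it was the only gene called. Gpr151, a receptor of habenula and injured sensory neurons, was second among negative interactions (−0.63 ± 0.15, unadjusted P = 0.000461 by edgeR). It rose by 1.35 ± 0.10 after EE + SNA, to 31.9, 27 and 33.9 CPM from 12.4, 11.8 and 11.8 CPM, and was at 43.4, 38 and 37.1 CPM after SH SNA and 13.9, 13.7 and 16 CPM after EE Sham. Among positive interactions Inmt, Plvap, Gm16010, BC022960 and Cep85 had the smallest P-values, and Plvap, a protein of fenestrated endothelium, was at 17.4, 14.8 and 20.9 CPM after EE + SNA and 11.4, 12.8 and 12.7 CPM after SH SNA (0.77 ± 0.21, unadjusted P = 0.00217 by edgeR, adjusted P = 1).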

How the data were processed

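RNA-seq of 12 samples was used, each the pooled sciatic DRG of 2 mice, with 3 samples in each of 4 groups. Per the labels and the study's methods, mRNA libraries (TruSeq) were sequenced on an Illumina HiSeq, reads were aligned to mm10 with TopHat2 (2.0.12, with 2.2.3 of Bowtie2), and the authors counted reads per gene with HTSeq (0.6.0 in the submitters' processing notes). The counts were deposited without normalization, and 5 summary lines of reads left out of genes were dropped. In the 12 samples 46.7% to 47.6% of the reads stood in the line for reads on no gene and 8.49% to 9.28% in the line for reads with no single place. Whether counting used strand was not given in the sources used here, so that overlapping and antisense genes may share reads. The FPKM values were computed and deposited by the authors and served only for alternatives.

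Of 44345 genes, 16238 passed edgeR's filterByExpr (minimum count 10, minimum total 15, over the 4 groups) and were tested with TMM factors and the quasi-likelihood test of edgeR 4.0.16 in R 4.3.3, two-sided, fitted on the 6 samples of each comparison. P-values were adjusted by Benjamini-Hochberg over all genes tested and called at 0.05. The interaction was fitted on all 12 samples. The test was tried on simulated data first. Alternatives were edgeR's likelihood ratio test, DESeq2 1.42.0, library size in place of TMM, no filter, a minimum of 10 counts in every sample, a block for the replicate number, all 12 samples in 1 fit, limma 3.58.1 on log2(FPKM + 1) and log2(FPKM + 0.1), and leaving out each sample.

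The members and the 40 gene lists (1064 distinct genes, of which 936 were tested, 116 were listed but not tested and 12 were not found by name) were chosen with earlier results of these data known. Named were the 6 check genes, the 12 largest rises and falls among called genes with a mean of at least 1 CPM over the 6 samples and groups that do not overlap, up to 4 members of each list, the 10 neutrophil genes highest in the third EE + SNA sample, and the 5 genes of smallest P in each direction of each other comparison. Further list members are given as examples, and some genes within the counts are not reported here by name. Promoter sequences came from RefSeq (GRCm38.p6). Figures were drawn with Matplotlib 3.10.9.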

Additional observations from a re-analysis of the deposited data

Results flagged for a closer look

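For 4 genes the SNA and Sham samples did not overlap in either housing, and their order in EE was the opposite of that in SH. These genes were named because their interaction P was among the smallest, so the pattern follows in part from that choice. It was looked for only among the named genes, and its share over all genes was not counted. None of the 4 passed the adjusted threshold of edgeR's quasi-likelihood test. Zbtb16 had an interaction of −1.75 on the log2 scale (adjusted P = 0.458). All 3 SH SNA samples (8.53 to 15.4 CPM) lay above the SH Sham samples (2.99 to 5.82 CPM), and all 3 EE + SNA samples (8.22 to 11 CPM) lay below the EE Sham samples (11.1 to 13.8 CPM). The adjusted P was 0.000848 by edgeR's likelihood ratio test, 0.000133 by DESeq2, 1 with the replicate block, and between 0.0528 and 1 when 1 sample was left out.

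Klhdc1 had an interaction of −0.62 (adjusted P = 1), with 11 to 13.8 CPM after SH SNA against 9.9 to 10.8 CPM in SH Sham, and 8.38 to 9.7 CPM after EE + SNA against 11.3 to 13.3 CPM in EE Sham. The predicted gene Gm4723 had an interaction of −0.86 (adjusted P = 1) with the same order, 4.14 to 4.51 CPM against 3.21 to 3.46 CPM in SH and 3.03 to 3.39 CPM against 3.87 to 5.41 CPM in EE. BC022960 had an interaction of 1.51 (adjusted P = 1) in the other order, 0.765 to 0.845 CPM against 0.936 to 1.64 CPM in SH and 0.967 to 1.44 CPM against 0.683 to 0.731 CPM in EE.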

How the results depend on the processing

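No gene named for EE + SNA against SH Sham changed direction under an alternative, which leaving out 1 sample could hardly do where the groups did not overlap. Of 159 such genes called, DESeq2 lost 12 of the 145 to which it gave an adjusted P, and it gave the others none. Of the same 159, limma on log2(FPKM + 1) lost 35, and leaving out 1 sample lost between 7 and 35. The 2031 calls against SH Sham became 1168 to 2021 when 1 sample was left out and 1389 to 2883 under the other alternatives. The share of higher genes among them was 54.9%, 48.8% when only library size was used, and 48.2% and 48.6% by limma on log2(FPKM + 1) and log2(FPKM + 0.1), so that the larger direction turned. It also turned against EE Sham without the second EE + SNA sample (335 higher, 359 lower) and, at an unadjusted P of 0.05, against SH SNA by library size only (302 higher, 348 lower), without the first EE + SNA sample (255 and 302) and without the third (290 and 297). No weight is placed on the balance of the interaction (220 higher, 203 lower), which turned by DESeq2 (74 and 112) and by the likelihood ratio test (164 and 169) among others.

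Against SH SNA, the 666 genes at an unadjusted P of 0.05 were 312 by DESeq2 and 1096 with no filter, and 557 to 950 without 1 sample. At the adjusted threshold 0 became 2 by DESeq2, 18 with no filter and 0 to 7 without 1 sample. Against EE Sham, 785 calls became 1303 by the likelihood ratio test, 1720 with no filter, 1278 with all 12 samples in 1 fit, 481 and 470 by limma on log2(FPKM + 1) and log2(FPKM + 0.1), and 361 to 1082 without 1 sample. The interaction's 423 genes at an unadjusted P of 0.05 were 186 by DESeq2, 854 with no filter and 362 to 771 without 1 sample, and its 0 adjusted calls became 1 by the likelihood ratio test, 1 by DESeq2 and 77 with no filter. The cause of these differences was not tested.

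The replicate numbers were not taken to pair the samples, since in no comparison did every same-numbered pair of deviations correlate above 0.1. The values were 0.066, −0.173 and −0.115 with SH Sham and 0.0621, −0.142 and −0.07 with EE Sham. With SH SNA they were 0.0573, 0.113 and 0.126, where each EE + SNA sample correlated best with its own number, and the block moved the 666 genes to 857. With the replicate block 1474 genes were called against SH Sham, 822 higher and 652 lower, and 27 of the 159 named calls were lost. The counts of neutrophil, red blood cell and skeletal muscle genes called ranged from 0 to 14, 0 to 6 and 0 to 18 over all alternatives. With 3 pools a group and 11401221 to 22871460 reads, changes of genes below 1 CPM rest on few reads.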
